A study of Bos taurus with 30 samples.

Results

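AP-1 is a transcription factor built from proteins of the bZIP class, which hold each other through a leucine zipper and bind DNA as a pair. A FOS subunit pairs with a JUN subunit, JUN subunits also pair among themselves, and ATF3 pairs with JUN subunits or with itself. Several of these genes, FOS, FOSB, JUN, JUNB and ATF3 among them, are immediate early genes: growth factor, stress and stretch signals that pass through MAP kinases switch them on within minutes, with no new protein made first, and their mRNA is short-lived. In ruminants, the trophoblast genes for interferon tau, the signal by which the conceptus maintains pregnancy, carry an AP-1 site upstream of their start.

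The genes described here are the 8 AP-1 genes FOS (Entrez 280795), FOSB (540819), FOSL1 (531389), FOSL2 (509889), JUN (280831), JUNB (514246), JUND (517192) and ATF3 (515266), found by gene ID among the 35092 gene rows of the count table. They were chosen by the measured difference of FOS and other immediate early genes between embryos produced in vitro and in vivo, seen in these same libraries. For that comparison their values are therefore a description, and no p-value is given for them.

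The samples were Holstein embryos at day 15, from which the embryonic disc (ED), which forms the body of the embryo, and the extra-embryonic membranes (EEM) were sequenced apart. In vitro produced (IVP) embryos came from slaughterhouse oocytes that were matured, fertilized and cultured without serum, and at day 7 they were placed in the uterus of recipient cows. In vivo (IVV) embryos grew in superovulated, inseminated donor cows, and the semen was from the same bull in both procedures. There were 30 libraries from 17 embryos, with 7 IVP and 9 IVV libraries of the ED and 6 IVP and 8 IVV libraries of the EEM, and 13 embryos (5 IVP and 8 IVV) had both tissues. Because IVP embryos stayed in recipients and IVV embryos in superovulated donors, few cows in each case, the procedure, the cow and her hormone treatment cannot be told apart. Sex and shape of the embryo were not in the labels. The paper reports that IVP embryos were shorter than IVV embryos, and it controlled its expression comparison for morphology. The length of each embryo was not in the labels either, so its part in these values was not tested.

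Libraries held between 48713218 and 63037371 counts. The member genes held between 539 and 83285 counts per library. At the smallest count the counting error was 4.31% of the value if each count is independent, and it was larger if mates were counted apart. Levels are given as CPM, the counts of a gene per 1000000 counts of its library after scaling for composition (TMM), and they serve to compare one gene between libraries, not one gene with another. The 13 mitochondrial genes held a median of 5.73% of counts in IVP ED, 3.72% in IVV ED, 6.50% in IVP EEM and 3.26% in IVV EEM, with 15.2% at most. The RNA of XIST, which is made from the inactive X chromosome of female cells, lay at or under 0.591 CPM in all 13 IVP libraries and in both IVV embryos VE3 and VE5, and at 44.9 CPM or above in all other IVV libraries. The ED label fitted its markers in part: POU5F1, a pluripotency factor of the epiblast, had a median of 29.3 CPM in IVP ED and 68.5 CPM in IVV ED against 1.59 and 1.22 CPM in IVP and IVV EEM, and NANOG had a median of 6.80 and 12.8 CPM in IVP and IVV ED against 0 and 0.0189 CPM in IVP and IVV EEM, whereas SOX2 and UTF1 were at 0 counts in every library. CRIPTO, another epiblast marker, was higher in the EEM (medians of 65.8 and 58.1 CPM in IVP and IVV) than in the ED (34.7 and 36.7 CPM), and GDF3 was higher in the ED (16.2 and 6.17 CPM in IVP and IVV) than in the EEM (0.138 and 0 CPM) but with the procedures in the opposite order to POU5F1. Trophoblast markers were abundant in all groups, with a summed median of 9012 CPM in IVP ED, 7225 CPM in IVV ED, 8522 CPM in IVP EEM and 14250 CPM in IVV EEM, so the ED libraries were not free of trophoblast RNA. In bulk tissue, fewer cells of a type and less RNA per cell cannot be told apart.

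FOS, the partner that gives AP-1 its fast and short response, was lower in IVP than in IVV embryos in both tissues. In the ED, FOS ran from 37.6 to 96.0 CPM in 7 IVP libraries (median 77.9) and from 120 to 1120 CPM in 9 IVV libraries (median 342). In the EEM, FOS ran from 40.7 to 184 CPM in 6 IVP libraries (median 60.6) and from 306 to 1239 CPM in 8 IVV libraries (median 558). Every IVP library thus lay below every IVV library of its tissue. The closest libraries in the ED were the IVP embryo IVPF10 at 96.0 CPM and the IVV embryo VE29 at 120 CPM, and in the EEM they were IVPF13 at 184 CPM and VE3 at 306 CPM. The mean was 5.85 times as high in IVV as in IVP ED and 7.64 times as high in IVV as in IVP EEM. The fitted log2 fold change of IVP over IVV was -2.37 ± 0.38 (SE) in the ED and -2.90 ± 0.34 in the EEM.

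FOSB, which is induced by the same signals as FOS, had the same order of groups but a wider spread. In the ED it ran from 13 to 174 CPM in IVP libraries (median 86.3) and from 55.9 to 703 CPM in IVV libraries (median 268), and in the EEM from 20.1 to 183 CPM (median 72.6) and from 146 to 722 CPM (median 413). The groups overlapped in both tissues, with 3 of 7 IVP libraries below all IVV libraries in the ED and 4 of 6 in the EEM. The log2 fold change of IVP over IVV was -1.63 ± 0.54 in the ED and -2.09 ± 0.35 in the EEM.

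FOSL1 and FOSL2, the other FOS-related genes, encode proteins without the strong activation domain of FOS and differed less between the procedures. FOSL1 ran in the ED from 17.8 to 110 CPM in IVP libraries (median 52.1) and from 42.5 to 136 CPM in IVV libraries (median 63.5), and its log2 fold change there was -0.18 ± 0.31. In the EEM, FOSL1 ran from 19.1 to 80.7 CPM in IVP (median 38.4) and from 44.5 to 148 CPM in IVV libraries (median 82.0), with a log2 fold change of -0.94 ± 0.30. FOSL1 groups overlapped in both tissues. FOSL2 showed the least difference of the family, with a median of 52.1 CPM in IVP ED (42.2 to 115), 66.7 CPM in IVV ED (30.3 to 71.8), 57.9 CPM in IVP EEM (26.8 to 70.2) and 61.6 CPM in IVV EEM (31.6 to 70.0). Its log2 fold changes were 0.09 ± 0.19 in the ED and -0.07 ± 0.22 in the EEM, both smaller than their standard errors.

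**Figure D1:**
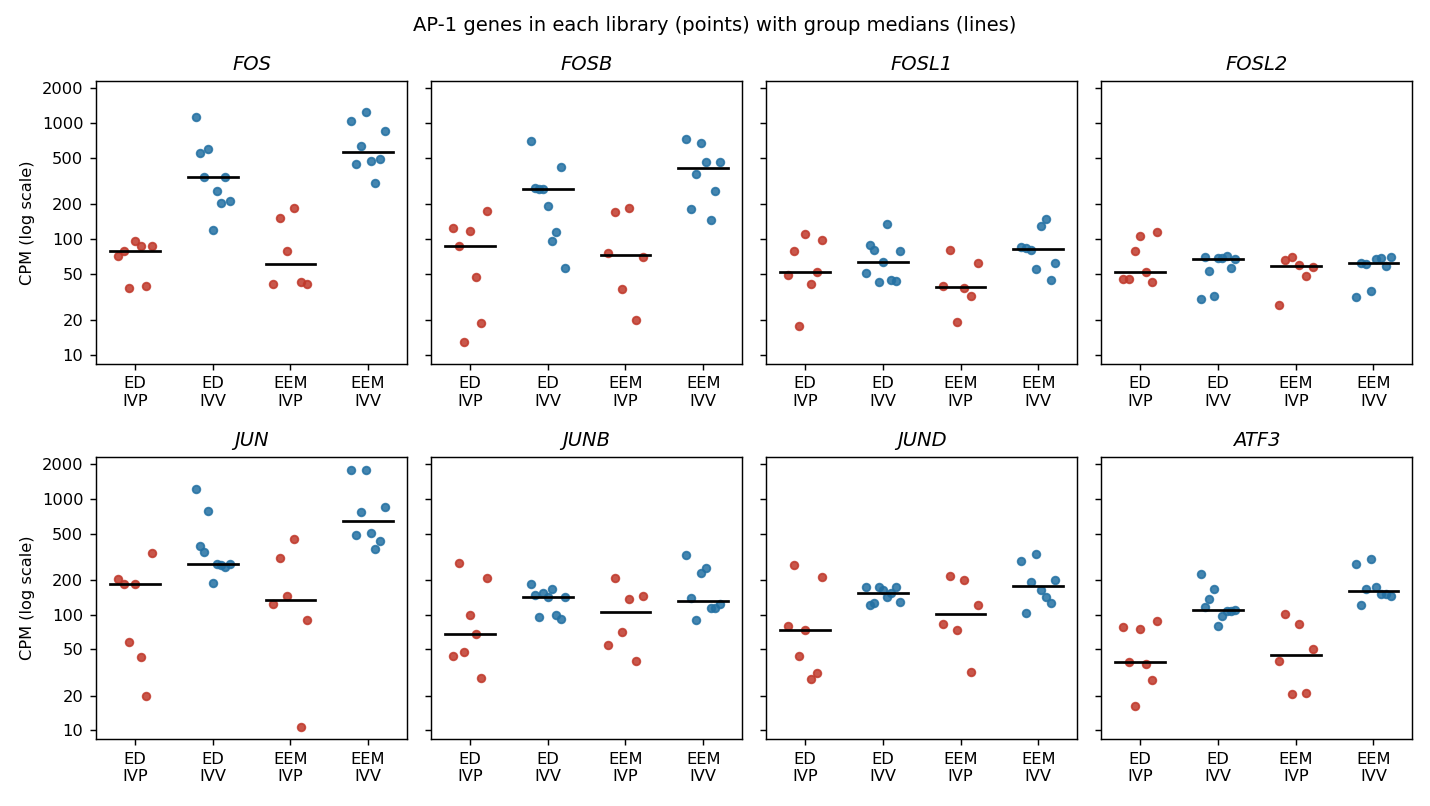
CPM (log scale) of the 8 AP-1 genes in each of 30 libraries, by tissue (ED, EEM) and procedure (IVP in red, IVV in blue), with 1 point per library and the group median as a line. FOS in both tissues and ATF3 in the EEM show no overlap between IVP and IVV points, whereas FOSL2 ranges overlap in all 4 groups, with 3 IVP ED libraries (77.9, 105 and 115 CPM) above all others.

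JUN encodes the main partner of FOS and activates its own promoter. In the ED it ran from 20 to 337 CPM in IVP libraries (median 184) and from 187 to 1207 CPM in IVV libraries (median 275), and in the EEM from 10.8 to 445 CPM (median 134) and from 370 to 1782 CPM (median 638). The groups overlapped, with 5 of 7 IVP libraries below all IVV libraries in the ED and 5 of 6 in the EEM. The log2 fold change was -1.38 ± 0.53 in the ED and -2.12 ± 0.44 in the EEM. Both tissues had their lowest values from the same IVP embryo, IVPF14, with 20 CPM in the ED and 10.8 CPM in the EEM. The highest were from the IVV embryos VE19 and VE28, at 1207 and 789 CPM in the ED and at 1768 and 1782 CPM in the EEM.

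JUNB and JUND encode JUN proteins that activate less than JUN on many promoters, and JUND is made in most cells without a stimulus. JUNB had a median of 67.4 CPM in IVP ED (28.1 to 278), 141 CPM in IVV ED (91.3 to 184), 104 CPM in IVP EEM (39.5 to 208) and 132 CPM in IVV EEM (89.0 to 325). JUND had a median of 73.1 CPM in IVP ED (28 to 270), 155 CPM in IVV ED (122 to 175), 102 CPM in IVP EEM (31.7 to 215) and 177 CPM in IVV EEM (102 to 333). In the ED the IVP embryos IVP11 and IVPF15 lay above all IVV libraries in both genes (278 and 206 CPM for JUNB, 270 and 212 CPM for JUND). JUND was tight in IVV ED, where the highest library had 1.43 times the value of the lowest, and wide in IVP ED, where it had 9.64 times. Log2 fold changes were -0.27 ± 0.35 and -0.54 ± 0.25 for JUNB and -0.52 ± 0.36 and -0.65 ± 0.29 for JUND, in the ED and the EEM. Without embryo IVP11 the ED values were -0.94 for JUNB and -1.27 for JUND. With single embryos left out in turn the ED values ran up to -0.0532 for JUNB (without IVPF14) and -0.31 for JUND (without IVPF13), and the EEM values up to -0.32 and -0.41 (both without VE19).

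ATF3 encodes a stress-induced partner that often represses when it pairs with itself. In the ED it ran from 16.1 to 87.6 CPM in IVP libraries (median 38.7) and from 78.9 to 223 CPM in IVV libraries (median 109), and in the EEM from 20.6 to 100.3 CPM (median 44.9) and from 120 to 300.0 CPM (median 158). The EEM groups did not overlap. In the ED only IVPF15, at 87.6 CPM, lay above the lowest IVV library, VE29, at 78.9 CPM. The log2 fold change was -1.33 ± 0.33 in the ED and -1.79 ± 0.27 in the EEM.

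Across the family, the fitted difference was negative in 7 of 8 genes in the ED and in 8 of 8 in the EEM, with a median of -0.92 and -1.37, against a median over all tested genes of -0.0079 in the ED and 0.0038 in the EEM. In the edgeR fit over all genes, and as a description only, 2 of 8 genes (FOS and ATF3) were past the threshold and lower in IVP ED, where 4.95% of 15733 tested genes were lower and 1.40% higher. In the EEM, 4 of 8 (FOS, FOSB, JUN and ATF3) were past it and lower in IVP, where 1.52% of 14718 tested genes were lower and 2.29% higher. No member was past it and higher. All IVP libraries lay below all IVV libraries for 1 member in the ED, as they did for 0.718% of tested genes, and for 2 members in the EEM, as for 0.374%. These counts rest on the contrast that the family was chosen for and support nothing further.

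Several other measures differed between the same groups, and their part in these values was not tested. Mesoderm markers (TBXT, MIXL1, EOMES, MESP1 and TBX6) summed to between 6.87 and 16.1 CPM in IVP ED and between 11.5 and 117 CPM in IVV ED. In the EEM they summed to between 1.82 and 6.91 CPM in IVP and between 3.04 and 8.17 CPM in IVV libraries. TBXT was at 0 counts in every EEM library. Trophoblast and hypoblast marker sums overlapped between IVP and IVV in both tissues (trophoblast in the EEM 4635 to 26458 CPM in IVP and 6785 to 17880 CPM in IVV, hypoblast in the EEM 1083 to 2146 and 553 to 2008 CPM). Markers of maternal blood and of uterine epithelium summed to at most 58.6 and 2.59 CPM in any library. Within groups, FOS went with the mitochondrial share (Pearson's r = 0.60 over 30 libraries on the log2 scale, with group means removed), as did JUN (r = 0.53), whereas FOSL2 went against it (r = -0.55). The mitochondrial share was higher in the median of IVP than of IVV libraries, and VE19 and VE28, which were among the highest for FOS, had the highest shares among IVV ED libraries (15.2% and 9.94%) and among IVV EEM libraries (13.9% and 10.1%).

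XIST separated the procedures nearly as fully as FOS did. Because all IVP libraries were low in XIST, and only VE3 and VE5 of the IVV embryos, XIST level and procedure cannot be told apart. The values that follow are a description. The IVV embryos with XIST as low as in IVP embryos, VE3 and VE5, had 259 and 342 CPM of FOS in the ED and 306 and 854 CPM in the EEM, above every IVP library of the same tissue. For ATF3 they had 98.0 and 107 CPM in the ED and 149 and 144 CPM in the EEM, also above every IVP library. The same did not hold for FOSB, where VE3 had 96.0 CPM in the ED and 146 CPM in the EEM, below the highest IVP libraries (174 and 183 CPM). Nor did it hold for JUN, where VE3 and VE5 had 275 and 258 CPM in the ED, below IVPF15 (337 CPM), and VE3 had 370 CPM in the EEM, below IVPF13 (445 CPM). With XIST level as a further term, the log2 fold change of FOS was -2.31 in the ED and -3.26 in the EEM, and that of ATF3 was -1.08 and -2.06. The titles carry a letter, A or C, that is not explained, and its part in these values was not tested. In the EEM FOS was at 41.2 to 184 CPM in 3 IVP and at 306 to 1039 CPM in 2 IVV libraries with the letter A, and at 40.7 to 150 CPM in 3 IVP and at 445 to 1239 CPM in 6 IVV libraries with the letter C. In the ED it was at 39.0 to 87.4 CPM in 2 IVP and at 259 to 1120 CPM in 2 IVV libraries with the letter A, and at 37.6 to 96.0 CPM in 5 IVP and at 120 to 592 CPM in 7 IVV libraries with the letter C.

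The order of group means was the same, from IVV EEM over IVV ED and IVP EEM to IVP ED, for FOS, FOSB, JUN, JUND and ATF3. For FOS the means were 684 ± 328 (SD, n = 8), 415 ± 307 (n = 9), 89.5 ± 62.6 (n = 6) and 70.9 ± 23.6 CPM (n = 7), and only the step from IVV ED to IVP EEM was larger than the SD of both groups. For ATF3 they were 184 ± 65.1, 126 ± 43.6, 52.6 ± 32.9 and 51.4 ± 28.2 CPM, again with only the middle step beyond both SDs. For FOSB, JUN and JUND no step between neighbouring groups exceeded the SDs of both. JUNB and FOSL1 differed in the last steps, with IVP ED above IVP EEM, and FOSL2 began with IVP ED at 68.9 ± 30.6 CPM and ended with IVP EEM at 54.2 ± 15.5 CPM, with no step beyond the spread.

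The comparison of ED with EEM asks whether the genes differ between tissues of 1 embryo, and because each of the 13 embryos gave both tissues it does not use the difference between procedures. FOS, FOSB and JUN were lower in the ED. FOS was at 295 ± 309 CPM in the ED and at 459 ± 389 CPM in the EEM (mean ± SD, n = 13), with a log2 fold change of ED over EEM of -0.66 ± 0.19 (SE) and an adjusted p of 0.0157 by edgeR's quasi-likelihood test with embryo as a block. It was lower in the ED in 10 of 13 embryos, the exceptions being VE19 (1120 against 1039 CPM), VE24 (545 against 445 CPM) and IVP10 (71.5 against 40.7 CPM).

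JUN fell most, from 614 ± 566 CPM in the EEM to 325 ± 330 CPM in the ED, with a log2 fold change of -0.84 ± 0.25 and an adjusted p of 0.0207 by the same edgeR test, and was lower in the ED in 11 of 13 embryos, including all 8 IVV embryos. FOSB was at 201 ± 192 CPM in the ED and at 288 ± 230 CPM in the EEM, with -0.62 ± 0.20, an adjusted p of 0.0300 by the edgeR test and 11 of 13 embryos lower in the ED. Without embryo IVP14, VE28, VE29 or VE4 the FOSB difference was no longer past the threshold (adjusted p of 0.0599, 0.0660, 0.0655 and 0.0622 by the edgeR test). ATF3 was lower in the ED in 11 of 13 embryos but did not pass (-0.43 ± 0.16, adjusted p = 0.0565 by the edgeR test), whereas it passed with DESeq2 (adjusted p = 0.0342) and by edgeR with no filter on low counts (adjusted p = 0.0356), without embryo IVP10 (0.00633) or without IVPF14 (0.0309). JUNB (-0.30 ± 0.13), JUND (-0.35 ± 0.20), FOSL1 (-0.11 ± 0.12) and FOSL2 (-0.00095 ± 0.097) did not pass either, with adjusted p-values of 0.0986, 0.210, 0.531 and 0.995 by the edgeR test, though JUNB passed without embryo IVP11 (adjusted p = 0.0351) or without VE3 (0.0405).

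Of the 8 genes, 3 were past the threshold and lower in the ED and 0 higher, where 8.16% of 14898 tested genes were lower in the ED and 12.8% higher. The median log2 fold change was -0.39 over the 8 genes and -0.085 over all tested genes. With the embryo block taken out, 0 of the 8 genes passed by edgeR (2 at an unadjusted p under 0.05) and 0 by DESeq2. In that edgeR fit 87 of all tested genes were lower in the ED, against 1215 with the block. By procedure, the FOS difference was -0.77 ± 0.24 in 8 IVV embryos and -0.49 ± 0.30 in 5 IVP embryos, and that of JUN was -0.91 ± 0.31 and -0.70 ± 0.43. The gap between procedures was smaller than its standard error for FOS (0.28 ± 0.38), FOSB (-0.25 ± 0.41), JUN (0.21 ± 0.53), ATF3 (0.18 ± 0.33), JUND (-0.38 ± 0.40), JUNB (-0.15 ± 0.27) and FOSL2 (0.02 ± 0.21). FOSL1 had the largest gap against its error (0.52 ± 0.22), from -0.31 ± 0.14 in IVV to 0.21 ± 0.17 in IVP embryos.

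**Figure D2:**
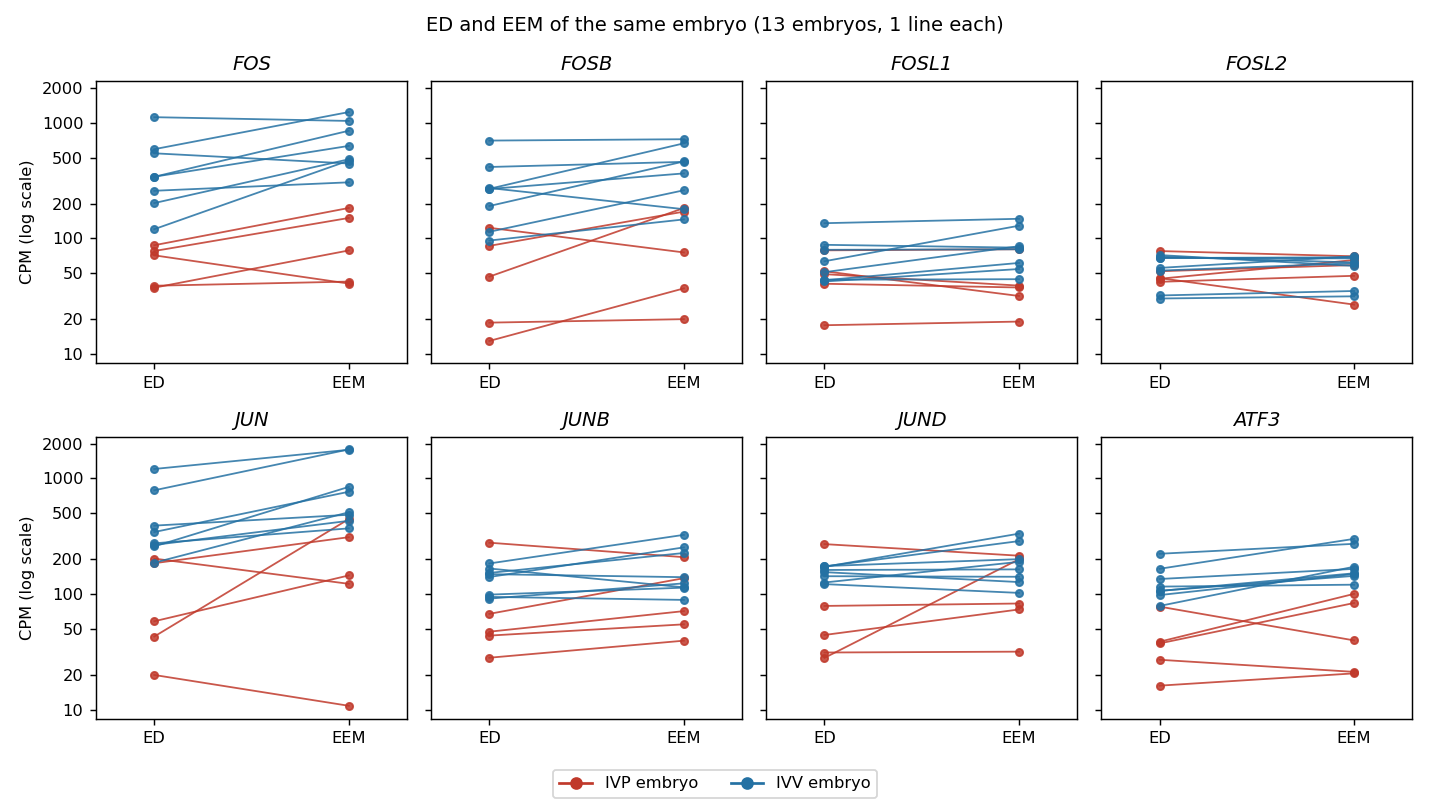
CPM (log scale) of the 8 AP-1 genes in the ED and the EEM of the 13 embryos with both tissues, with 1 line per embryo (IVP in red, IVV in blue). Lines climb from ED to EEM in 10 of 13 embryos for FOS and in 11 of 13 for FOSB, JUN and ATF3. FOSL2 lines have no common direction, with 8 of 13 climbing.

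**Figure D3:**
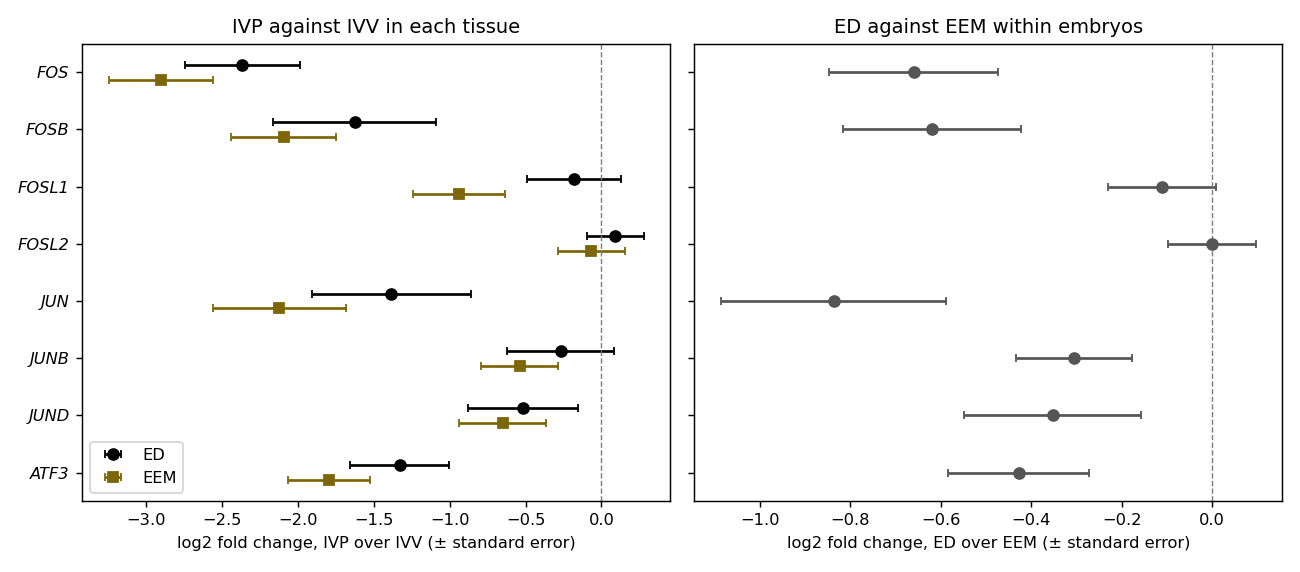
Fitted log2 fold changes of the 8 AP-1 genes with standard errors, on the left for IVP over IVV in the ED (black circles) and the EEM (brown squares), on the right for ED over EEM within 13 embryos. On the left FOS stands farthest from 0 in both tissues (-2.37 and -2.90), on the right JUN does (-0.84).

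The levels of the ED and of the EEM from the same IVV embryo were positively correlated in all 8 genes, but over 8 embryos no relation passed correction with TMM scaling. With RLE scaling instead, 6 passed, each at an adjusted exact permutation p of 0.0477. The values below are those with TMM scaling. Pearson's r of log2 CPM between the tissues was 0.63 for FOS, 0.71 for FOSB, 0.78 for FOSL1, 0.91 for FOSL2, 0.84 for JUN, 0.68 for JUNB, 0.67 for JUND and 0.73 for ATF3. Two-sided exact permutation p-values ran from 0.0157 (JUN) to 0.0970 (FOS), and after adjustment over the 8 genes they ran from 0.0617 to 0.0970. Spearman's rho ran from 0.40 (FOSL2 and ATF3) to 0.74 (FOSL1 and JUND), with exact permutation p-values of 0.0458 to 0.327 and adjusted values of 0.183 to 0.327. For JUN, ATF3 and FOSL2 the relation rested on the embryos VE19 and VE28, without which r was 0.10, -0.33 and -0.22. For the other genes r without the 2 embryos farthest from the median was 0.29 (FOSB), 0.52 (JUNB), 0.54 (FOS), 0.68 (FOSL1) and 0.78 (JUND).

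**Figure D4:**
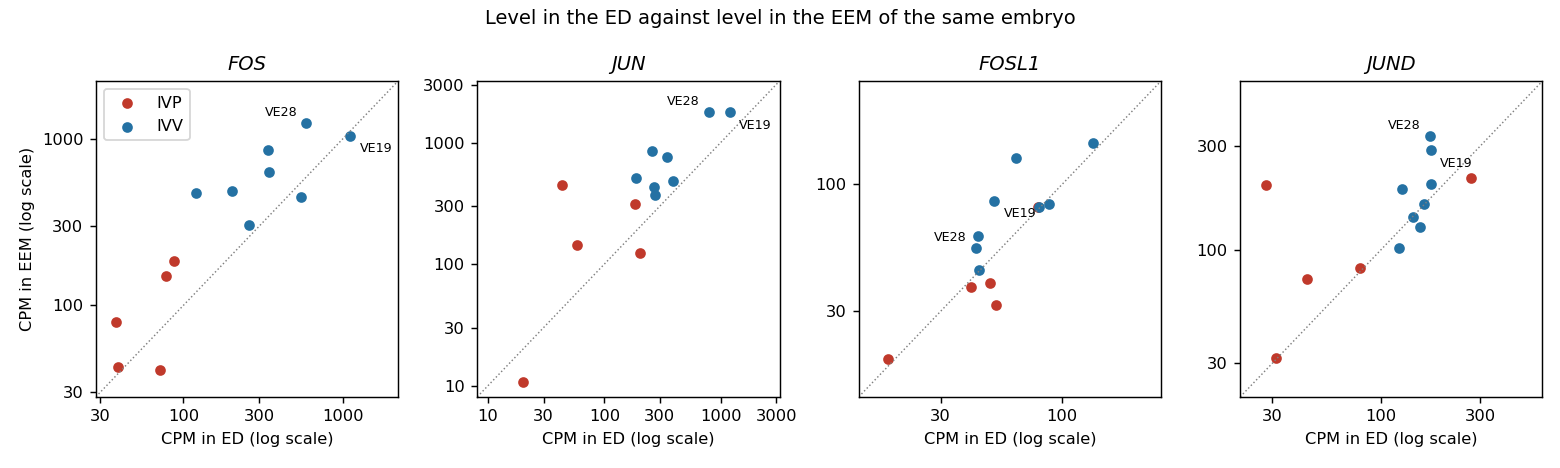
Level in the EEM against level in the ED of the same embryo for FOS, JUN, FOSL1 and JUND, in CPM with both axes on a log scale, for 5 IVP (red) and 8 IVV (blue) embryos and with equal levels as a dotted line. In FOS and JUN the IVV embryos VE19 and VE28 lie at the upper end of both axes, and most points are above the line.

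Within groups, JUN and FOSB varied more than most genes and FOSL2 less. With group means removed, the SD of log2 CPM over the 30 libraries was 1.28 for JUN and 1.16 for FOSB, above 96.2% and 93.9% of 16654 genes. It was 0.82 for FOS, 0.82 for JUNB, 0.83 for JUND, 0.70 for ATF3, 0.69 for FOSL1 and 0.51 for FOSL2, which was above 31.0% of genes. FOS, FOSB, JUN and ATF3 varied together, with Pearson's r between 0.70 and 0.84 in their 6 pairs. JUNB and JUND went with each other (r = 0.80), and JUND with JUN (r = 0.81). FOSL2 went with none, with r between -0.23 and 0.28 in its 7 pairs. These correlations describe libraries that share embryos, depth and composition.

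Ranked by Pearson's r with FOS over the 30 libraries with group means removed, among 16653 genes, the 10 most alike named genes were TCIM (0.79), KLF2 (0.77), PLCB3 (0.77), JUN (0.76), DNAJB1 (0.75), SPDYC (0.75), FOSB (0.74), ITPKA (0.73), FOXJ1 (0.73) and ZFP36 (0.73). KLF2 is a flow-induced transcription factor, DNAJB1 a heat shock co-chaperone, PLCB3 a phospholipase, ITPKA a kinase of inositol phosphate, FOXJ1 a factor of motile cilia and ZFP36 a protein that speeds the decay of mRNA with AU-rich elements, that of FOS included. The rank was 4 for JUN, 7 for FOSB, 19 for ATF3 (r = 0.70), 554 for JUND (r = 0.48), 574 for JUNB (r = 0.48), 7913 for FOSL1 (r = 0.02) and 12956 for FOSL2 (r = -0.23). JUND was closer to FOS in the EEM (r = 0.78 over 14 libraries) than in the ED (r = 0.24 over 16 libraries), a difference that was not tested.

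The rest of the pathway was followed in 6 lists of 107 genes: bZIP partners that pair with AP-1 proteins, MAP kinases and their effector kinases, factors that bind the promoters of FOS and JUN, phosphatases and inhibitors that shut MAP kinases off, proteins that break down AP-1 mRNA or protein, and genes that textbooks list as AP-1 targets. In the ED, 4 of 97 tested list genes (4.12%) were lower in IVP and 0 higher. In the EEM, 2 of 94 (2.13%) were lower in IVP and 0 higher, namely DUSP1 and ZFP36. Both are immediate early genes, the kind whose difference between procedures led to the choice of the family, so their values in that contrast are given without a p-value. Both shares of lower genes were near those of all genes, 4.95% and 1.52%. The lists were drawn up with earlier results of these data known. Adjusted p-values of list genes between IVP and IVV are therefore a description and not independent tests.

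For the bZIP partners, the median log2 fold change of IVP over IVV was -0.22 in the ED over 18 genes and -0.30 in the EEM over 17 genes. By edgeR, 5 of 18 in the ED and 8 of 17 in the EEM had an unadjusted p under 0.05. Over all tested genes, 2902 of 15733 in the ED and 2016 of 14718 in the EEM had one. In the EEM 0 partners passed by edgeR, and DESeq2 called 2. Of 25 kinases, RPS6KA5 (MSK1), which phosphorylates histone H3 and CREB at immediate early genes, was lower in IVP ED (1.99 ± 0.80 against 3.26 ± 1.02 CPM, -0.92 ± 0.26, adjusted p = 0.0339 by edgeR), and 0 passed in the EEM by edgeR or DESeq2, with 1 at an unadjusted p under 0.05. Medians of the kinases were 0.09 in the ED and -0.06 in the EEM. Promoter binding factors, such as the serum response factor and its ELK partners, had 0 of 17 genes past the threshold in the ED and 0 of 16 in the EEM, with medians of -0.12 and -0.14. By edgeR 3 of them in the ED and 1 in the EEM had an unadjusted p under 0.05, and DESeq2 called 0 in either tissue. Kinases and these factors are regulated by phosphorylation, which mRNA levels do not measure.

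DUSP1, a phosphatase that is itself an immediate early gene and switches off the stress MAP kinases, was lower in IVP EEM, at 71.8 ± 39.3 CPM against 151 ± 55.0 CPM in IVV (log2 fold change -1.03 ± 0.28), and it was no longer past the threshold in 8 of 14 fits that left out 1 embryo, with no surrogate variable or with the title letter as a term. DUSP9, an ERK phosphatase, was lower in IVP ED at a very low level (0.0792 ± 0.0900 against 0.648 ± 0.521 CPM, -3.05 ± 0.68, adjusted p = 0.00803 by edgeR). The list's medians were -0.16 in the ED over 14 genes and 0.07 in the EEM over 13 genes. ZFP36 was lower in IVP EEM, at 115 ± 64.1 CPM against 308 ± 153 CPM in IVV (log2 fold change -1.31 ± 0.24), the one of 10 turnover genes that was past the threshold. It is also among the genes most like FOS within groups. In the ED 0 of the 10 turnover genes passed by edgeR or DESeq2 and 0 had an unadjusted p under 0.05, and the medians of this list were -0.0044 in the ED and -0.13 in the EEM.

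Of 13 tested AP-1 targets, SPP1, which encodes the adhesion protein osteopontin, was lower in IVP ED at 0.589 ± 0.284 CPM against 4.85 ± 3.23 CPM in IVV (-3.05 ± 0.49, adjusted p = 0.000391 by edgeR). In the EEM 0 of 13 targets passed by edgeR or DESeq2 and 3 had an unadjusted p under 0.05, SPP1 being at 0.259 ± 0.292 CPM in IVP and 0.362 ± 0.523 CPM in IVV. The medians of the targets were -0.18 in the ED and 0.26 in the EEM. RPS6KA5 in the ED lost its call when any of 9 single embryos was left out (adjusted p of at most 0.159 by edgeR), with no surrogate variable (adjusted p = 0.174), with 2 of them (0.0846), with the title letter as a term (0.0548) and with XIST as a covariate (0.197), and DUSP9 lost its call with XIST as a covariate (adjusted p = 0.127 by edgeR).

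Between the tissues, 9 of 94 list genes (9.57%) were lower in the ED and 8 (8.51%) higher, where 8.16% and 12.8% of all genes were. Of 17 bZIP partners, 5 were lower in the ED and 0 higher. They were MAFG (-0.43 ± 0.10, adjusted p = 0.00322), JDP2 (-0.56 ± 0.13, adjusted p = 0.00410), ATF4 (-0.46 ± 0.11, adjusted p = 0.00460), MAFF (-0.44 ± 0.11, adjusted p = 0.00756) and, named after its value was seen, DDIT3 (-0.52 ± 0.14, adjusted p = 0.0120), all by the blocked edgeR test. JDP2 represses AP-1 targets, and ATF4 and DDIT3 act in the stress response to unfolded protein or lack of amino acids. The list's median, -0.079, was near the -0.085 of all genes.

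Of 13 inhibitors of MAP kinase signalling, 4 were higher in the ED, where 12.8% of all genes were, 0 were lower and 9 did not pass, with a list median of 0.36. DUSP10, a phosphatase of the stress kinases, was at 1.10 ± 0.56 CPM in IVP ED and 1.91 ± 1.37 CPM in IVV ED, against 0.200 ± 0.258 and 0.290 ± 0.246 CPM in the EEM, with a log2 fold change of 2.83 ± 0.38 (adjusted p = 1.29e-05 by edgeR). SPRY2 and SPRED1, which block the RAS to ERK path, were higher by 0.99 ± 0.14 and 0.59 ± 0.12 on the log2 scale (adjusted p = 1.88e-05 and 0.00113 by edgeR), and DUSP6, the ERK phosphatase that ERK signalling itself induces, by 0.48 ± 0.11 (adjusted p = 0.00378 by edgeR). DUSP6 was at 75.7 ± 29.2 and 64.2 ± 23.7 CPM in IVP and IVV ED and at 48.9 ± 21.1 and 45.4 ± 22.1 CPM in IVP and IVV EEM. In the 5 IVP embryos alone all 4 lost their call (adjusted p of 0.0733 for DUSP10, 0.218 for SPRY2, 0.557 for SPRED1 and 0.501 for DUSP6 by edgeR), with log2 fold changes of 2.63, 0.58, 0.38 and 0.48 in that order.

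Among the kinases, RPS6KA2 (RSK3), which ERK activates, was higher in the ED by 2.64 ± 0.25 (adjusted p = 1.39e-07 by edgeR), at 3.05 ± 1.98 CPM in IVV ED against 0.368 ± 0.174 CPM in IVV EEM. The p38 kinases MAPK12 (-0.53 ± 0.10, adjusted p = 0.000893 by edgeR) and MAPK13 (-0.74 ± 0.22, adjusted p = 0.0183 by edgeR) were lower, and the median of the 25 kinases was -0.15. ELK4, a partner of the serum response factor on the FOS promoter, was the one of 16 promoter factors that passed, lower in the ED by -0.64 ± 0.14 (adjusted p = 0.00228 by edgeR), with a list median of -0.032. Of the 10 turnover genes 0 passed by edgeR or DESeq2 and 2 had an unadjusted p under 0.05, and their median was -0.15. Of all 14898 tested genes, 5090 had an unadjusted p under 0.05 by edgeR. Targets were split, with CD44 (1.97 ± 0.31, adjusted p = 8.97e-05 by edgeR), SPP1 (3.62 ± 0.65, adjusted p = 0.000375 by edgeR) and TGFB1 (0.78 ± 0.26, adjusted p = 0.0407 by edgeR) higher in the ED and MMP13 lower (-1.14 ± 0.37, adjusted p = 0.0337 by edgeR, under 0.56 CPM in every library), and a median of -0.054 over 13 genes. The calls of TGFB1 and MMP13 were lost without any of several single embryos. The difference between procedures in this tissue contrast was tested for 20 of the list genes that the rule took, and it passed the threshold for none of these 20, with an adjusted p of 0.114 or more by edgeR.

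**Figure D5:**
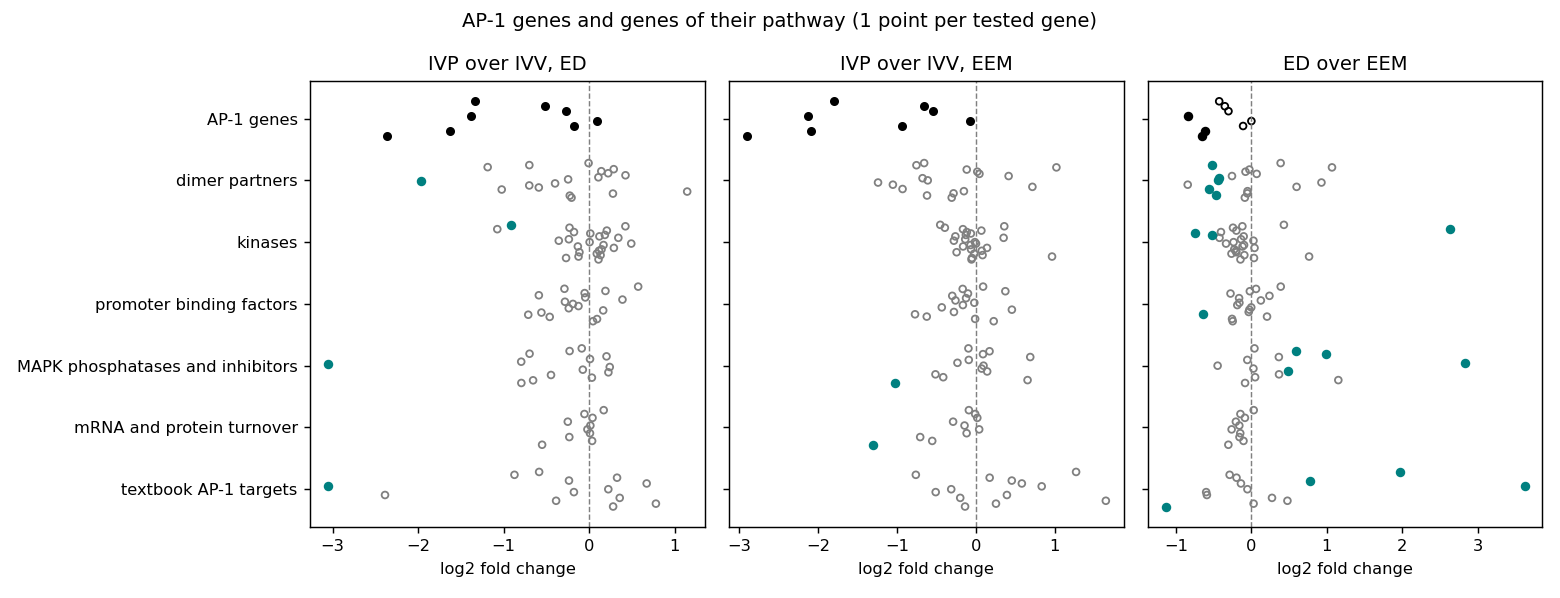
Log2 fold changes of the AP-1 genes (black) and of the tested genes of 6 pathway lists, with 1 point per gene, for IVP over IVV in the ED, IVP over IVV in the EEM and ED over EEM. Filled green points, and filled black points in the right panel, have an adjusted p under 0.05, and open points do not; black points in the left and middle panels are drawn filled without a test. In the middle panel the AP-1 genes reach -2.90 while the farthest list gene past the threshold, ZFP36, is at -1.31. The AP-1 genes were chosen for their difference in this contrast, so their distance from the list genes supports nothing further.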

How the data were processed

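Poly(A) RNA of 30 libraries was sequenced in pairs. The authors filtered reads with SOAPnuke, aligned them with STAR 2.7.0b to ARS-UCD1.3 and deposited raw counts per Entrez gene from featureCounts (Subread 2.0.3, versions from the submitters' processing notes), without filter or normalization. Libraries were not stranded, so reads of a gene and of an antisense partner cannot be told apart. Even counts were in excess, as when mates are counted apart, hence an alternative with halved counts. Symbols came by gene ID from RefSeq of ARS-UCD2.0 (31630 of 35092 rows), whose positions were not used. Libraries held 48713218 to 63037371 counts, and 0 pairs of them were identical.

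From these counts, edgeR 4.0.16 in R 4.3.3 (TMM, filterByExpr at 10 counts, quasi-likelihood test, Benjamini-Hochberg threshold 0.05) compared IVP with IVV per tissue with 1 surrogate variable (sva 3.50.0), and ED with EEM in 26 libraries of 13 embryos with embryo as a block. The pairing comes from the embryo code that both tissues share in the titles. The methods of the study use sva without giving the number of variables. P-values measure the spread between these embryos. Correlations used log2 CPM (prior count 2). Scripts were tested on simulated data, and DESeq2 1.42.0, RLE scaling, other filters and terms and single embryos left out were the alternatives. Named genes are the 8 members, per pathway list and comparison the 4 or fewer genes of smallest p past the threshold, and the 10 named genes most like FOS. Under this rule 1 list gene is not reported here, though counts and medians of its list include it. The members and lists were chosen with earlier results of these data known. The pathway list had 1 gene without a row, and counting intervals cover counting error only.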

Additional observations from a re-analysis of the deposited data

Results flagged for a closer look

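Over the 8 AP-1 genes in 4 groups, 32 sets of libraries were checked for a library far from the others by Dixon's test at 95%, which chance alone marks in about 1 of 20 sets, and 2 were marked. FOS in the IVV ED was 1120 CPM in embryo VE19, far above the next, VE28, at 592 CPM. FOSL1 in the IVV ED was 136 CPM in embryo VE3, above the next, VE24, at 88.2 CPM. Both embryos were also high in the EEM, with 1039 CPM of FOS in VE19 and 148 CPM of FOSL1 in VE3. The difference between procedures in the tissue contrast was tested for 20 named genes of the pathway lists and passed for 0 of them by edgeR (adjusted p of 0.114 or more).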

How the results depend on the processing

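Fitted differences of the 8 genes between IVP and IVV kept their sign in both tissues under every alternative tried, except FOSL2 in the EEM without IVP10 (0.0780) or VE29, and FOSL1 in the EEM moved to -1.59 with XIST as a covariate. For all genes, 998 differed between IVP and IVV in the ED, against 1512 with DESeq2, 1846 with no filter on low counts, 659 with XIST as a covariate and 639 (without VE29) to 1160 (without VE4) when single embryos were left out. In the EEM 561 differed, against 1211 with no filter, 146 with XIST as a covariate and 426 to 729 without single embryos. Of the EEM genes 224 were lower and 337 higher, and 192 and 184 with no surrogate variable.

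Between ED and EEM, 3124 genes differed with the embryo block, 1553 with no replicate block, 1859 with no block over all 30 libraries, 488 in IVP embryos only and 2414 to 3722 without single embryos. Genes lower in the ED were 1215 of these with the block, 87 without it, 113 without it over all 30 libraries and 20 in IVP embryos only. The 3 AP-1 genes lower in the ED became 0 without the block, 0 without it over all 30 libraries and 0 in IVP embryos only, 4 with DESeq2, 4 with no filter on low counts, and 2 to 4 without single embryos. In IVV embryos only, FOS (adjusted p = 0.0291), JUN (0.000753) and ATF3 (0.0169) passed by edgeR and FOSB (0.105) did not. The sign of FOSL1 turned to 0.0474 without the block over all 30 libraries and to 0.22 in IVP embryos only. That of FOSL2, near 0 throughout, turned to 0.16 without the block over all 30 libraries, 0.00940 with DESeq2, 0.00942 with RLE, 0.0177 with halved counts, 0.0435 in IVV and 0.0200 in IVP embryos only, and ran from -0.0693 to 0.0351 without single embryos. TGFB1 turned to -0.16 in IVP embryos only. Of the 16 list genes past the threshold between tissues that the rule took, 9 lost their call with no replicate block, 9 with no block over all 30 libraries, 3 in IVV embryos only, 13 in IVP embryos only and 1 with no filter. Correlations between tissues passed for 0 genes, for 6 with RLE scaling (each at an adjusted exact permutation p of 0.0477) and for 0 to 1 without single embryos (1 without VE29). The causes of these shifts were not tested. Depth did not limit the members, and DUSP9, MMP13 and SPP1 rest on low counts.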
